A study of Mus musculus with 4 samples.

Results

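The ligands described here are 9 genes of the TNF superfamily that myeloid cells make, namely Tnf, Ltb, Tnfsf8, Tnfsf9, Tnfsf10, Tnfsf12, Tnfsf13, Tnfsf13b and Tnfsf14, found by symbol in a table of read counts for 21878 genes. All 9 passed the filter on low counts, as did 12494 genes in all. RNA was sequenced from bone-marrow-derived macrophages of C57BL/6 mice aged 8 weeks, which had been grown with M-CSF and then kept for 48 h with MC38, a mouse colon cancer cell line, on the other side of a porous insert. There were 2 libraries labelled WT and 2 labelled anti-Act1, a genotype the study describes as a knockdown of Act1 limited to macrophages; what drives the anti-Act1 allele is not given in the sources used here. Every library came from macrophages exposed to tumour cells; the time is that of the labels, and a figure legend of the study gives a shorter one. Act1, encoded by Traf3ip2, is the adaptor through which the IL-17 receptor signals, and it also acts below CD40 and the BAFF receptor in B cells. The comparison asked which ligand transcripts differ between both kinds of cocultured macrophage.

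Ligands of this family are mostly membrane proteins that assemble as trimers, and several are cut from the surface to act at a distance. They bind receptors of the TNF receptor superfamily, which recruit TRAF adaptors or death domain proteins and so switch on NF-κB or cell death. Macrophages are a main source of TNF itself, whose mRNA is made quickly and is kept short-lived by AU-rich elements in its 3′ end.

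Each library held 55435063 to 75062945 counts. WT replicates 1 and 2 had 64199075 and 75062945, and anti-Act1 replicates 1 and 2 had 61926229 and 55435063, so that depth was lower in the latter. A gene at 0 counts could still have up to 3, which is 0.0395 to 0.0549 CPM depending on the library; CPM are counts relative to the scaled library total, and this limit covers counting error only. The study describes 2 biological replicates per condition, but nothing in the labels says whether the 2 libraries of a group came from separate animals. The p-values therefore measure the spread between these libraries. The smallest p that an exact permutation test allows for 1 gene, 2 libraries against 2, is 0.333, and the p-values given are two-sided and come from fits across all genes tested, with Benjamini-Hochberg adjustment, by edgeR's quasi-likelihood test unless limma or DESeq2 is named. A gene was called where this adjusted p was under 0.05, and log2 fold changes are anti-Act1 minus WT.

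The cells had the transcripts of macrophages. The 8 macrophage markers summed to 25554 and 24573 CPM in the 2 libraries labelled WT (the WT-labelled pair, a name that implies no matching between groups) and to 25418 and 26257 CPM in the anti-Act1-labelled pair, with Lyz2 (lysozyme) the most abundant at a mean of 16873 CPM. Of these 8, Cd14 was called higher and Itgam and Mertk lower, beside 10.9% and 9.76% of all genes tested. Of 7 epithelial tumour markers, Krt8, Krt18 and Krt20 had 0 counts in all 4 libraries, Epcam and Krt19 at most 2, Vil1 11 to 30 and Cdh1 4 to 29. Traf3ip2 was at 6.98 and 7.54 CPM in the WT-labelled pair and at 9.63 and 7.84 CPM in the anti-Act1-labelled pair. Its log2 fold change was 0.27 (standard error 0.12, edgeR adjusted p = 0.117), and it was called higher in 1 of 13 alternative analyses, at 0.41 without anti-Act1 replicate 2 (edgeR adjusted p = 0.0343), and was at 0.11 when anti-Act1 replicate 1 was left out (edgeR adjusted p = 0.723). The transcript of the targeted gene was therefore not lower in these libraries, and each direction below rests on the labels. The study also assayed Act1 in such macrophages outside these libraries, which was not analysed here. Ddx3y, Uty and Kdm5d, of the Y chromosome, had 0 counts in both libraries labelled anti-Act1, and Eif2s3y had 1 count and 0 counts, whereas in the WT-labelled pair the 4 genes had between 2248 and 7360 counts. The groups thus differed in Y-linked transcripts, and so in the apparent sex of the donor mice. This difference and the genotype label cannot be told apart in any of the values that follow.

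Of the 9 ligands, 2 rose in the libraries labelled anti-Act1 (Tnf and Tnfsf9), 1 fell (Tnfsf14) and 6 were not called. Over all genes tested, 10.9% were called higher (1366 genes) and 9.76% lower (1220 genes), 20.7% in either direction. Lower calls outnumbered higher ones without composition normalization (1411 against 1105) and with limma on log2(FPKM + 1) after its filter (1057 against 913). The median log2 fold change of the 9 was 0.034, beside -0.0046 over all genes tested. The CPM of the groups did not overlap for 7 of the 9, as they did not for 57.1% of all genes tested. The count of ligands called higher was 1 when anti-Act1 replicate 2 or WT replicate 1 was left out, because Tnfsf9 was then not called. The 1220 genes called lower became 742 when anti-Act1 replicate 1 was left out and 741 when anti-Act1 replicate 2 was. These are bulk libraries, in which fewer cells that express a gene and less of its RNA per cell cannot be told apart.

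**Figure D1:**
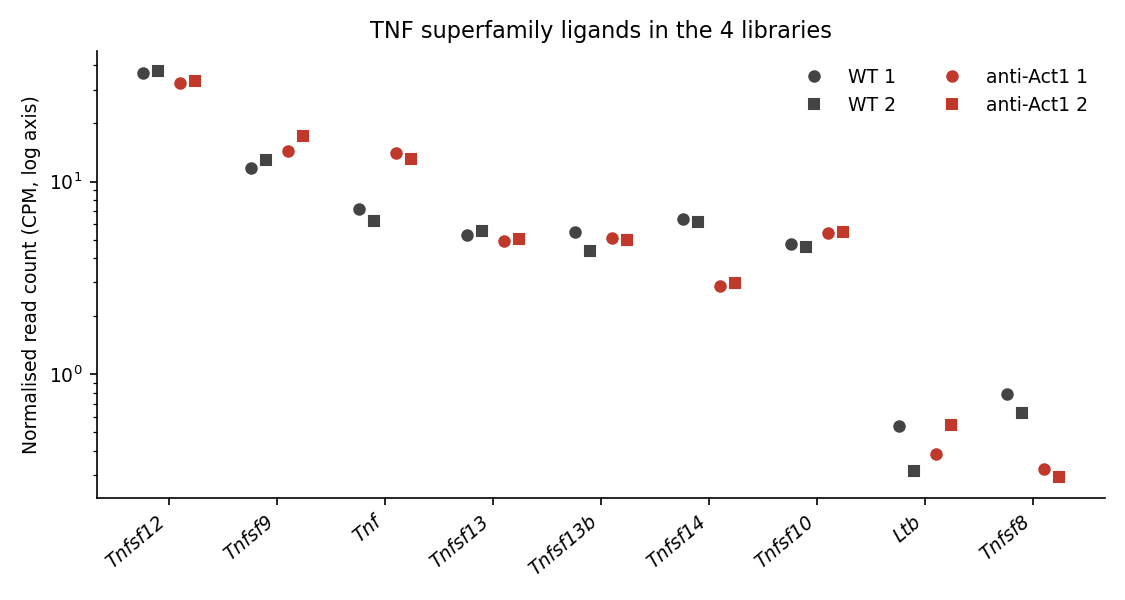
Normalised read count (CPM, log axis) of the 9 ligands in each of the 4 libraries, with WT in grey, anti-Act1 in red, circles for replicate 1 and squares for replicate 2. Tnf lies at 6.26 to 7.18 CPM in the WT-labelled pair and at 13.1 to 14.1 CPM in the anti-Act1-labelled pair, while Tnfsf14 lies at 6.21 to 6.38 CPM and 2.87 to 2.97 CPM.

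Tnf encodes the founding cytokine of the family, an inducer of inflammation that signals through TNFR1 and TNFR2. It had 464 and 475 counts in the WT-labelled pair and 868 and 715 counts in the anti-Act1-labelled pair, which were the shallower ones. Scaled to depth, these were 7.18 and 6.26 CPM against 14.1 and 13.1 CPM. Both anti-Act1 libraries were above both WT libraries by more than the spread within either group (6.72 ± 0.653 and 13.6 ± 0.680 CPM, SD, n = 2 each). The ratio of the means was 2.02 and the log2 fold change 1.02 (standard error 0.11, 95% interval 0.80 to 1.24, edgeR adjusted p = 3.3e-10). Of the 12494 genes tested, 402 (3.22%) had a larger absolute log2 fold change than Tnf. Tnf was called higher in 13 of 13 alternative analyses, with a log2 fold change between 0.84 and 1.12. Tnf and Tnfsf9 were among the genes that the study picked from these same libraries for a heat map, so their rise here is not independent evidence of direction.

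The AU-rich stretch of the Tnf message and its promoter are shown because Tnf had the lowest adjusted p of the 9 ligands. Tnf lies at chr17:35199367-35202007 (RefSeq, GRCm38.p6), on the minus strand. In the 3′ untranslated region of its transcript Tnf-201 (764 bases, GENCODE M21) the heptamer TATTTAT occurred 8 times and the nonamer TTATTTATT 5 times, overlapping matches included and on the transcript strand only. Bases 438 to 467 of that region read as follows, 5′ to 3′ and as DNA, with the bases that fall in a heptamer in capitals.
Tnf AU-rich stretch: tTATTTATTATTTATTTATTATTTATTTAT
Of 11956 tested genes with a 3′ untranslated region in the annotation, 7.77% held at least 1 nonamer and 0.636% held 3 or more, and 29.2% held at least 1 heptamer. Among the other ligands, the nonamer was found only in Tnfsf13b, once, and the heptamer 3 times each in Tnfsf8 and Tnfsf10, 2 times in Tnfsf9 and once each in Tnfsf13b and Tnfsf14. Ltb, Tnfsf12 and Tnfsf13 held neither. The 3′ regions ranged from 174 bases (Ltb) to 3998 bases (Tnfsf10), and Tnf carried the most matches of the 9 although 4 of the other 8 regions were longer.

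The promoter of Tnf, from 250 bases before to 50 bases after the start of transcription, is given from RefSeq at chr17:35201958-35202257 (GRCm38.p6, minus strand), 5′ to 3′, with its single match to the TATA box, TATAAA, in capitals.
Tnf promoter: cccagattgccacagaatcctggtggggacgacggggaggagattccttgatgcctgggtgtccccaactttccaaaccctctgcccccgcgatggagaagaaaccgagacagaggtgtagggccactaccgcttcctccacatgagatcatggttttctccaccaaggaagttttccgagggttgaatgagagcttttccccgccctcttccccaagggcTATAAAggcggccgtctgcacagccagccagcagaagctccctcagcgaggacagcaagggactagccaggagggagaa
The match began 29 bases before the start. Such promoters were found for 7 of the 9 ligands, all but Tnfsf9 and Tnfsf12, and each was searched on both strands for TATAAA, for the AP-1 site TGACTCA, for the cyclic AMP element TGACGTCA, for an interferon element (GAAA, any 2 bases, GAAA) and for the NF-κB site. Among 32851 mouse promoters of this length, 13.6% held TATAAA, 5.20% the AP-1 site, 1.79% the cyclic AMP element, 3.44% the interferon element and 8.46% the NF-κB site. Tnf held no match but TATAAA, and Ltb held an NF-κB match that began 87 bases before its start. Tnfsf13 and Tnfsf13b held an AP-1 match, Tnfsf13b also an interferon element, and Tnfsf8 and Tnfsf10 held none of the 5. A match is a description of letters, and an absent one says nothing of the factor.

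Tnfsf9 encodes 4-1BB ligand, which costimulates T cells through the receptor 4-1BB. Counts were 762 and 987 in the WT-labelled pair and 892 and 938 in the anti-Act1-labelled pair, or 11.8 and 13.0 CPM against 14.4 and 17.2 CPM. The groups did not overlap, but anti-Act1 replicate 2 stood above the other 3 libraries, and the nearest libraries of the 2 groups were 13.0 and 14.4 CPM. Tnfsf9 rose by a smaller step than Tnf, with a log2 fold change of 0.35 (standard error 0.095, 95% interval 0.16 to 0.54, edgeR adjusted p = 0.00558). Without anti-Act1 replicate 2 the log2 fold change was 0.22 (edgeR adjusted p = 0.244), and without WT replicate 1 it was 0.28 (edgeR adjusted p = 0.0519), so that the call rested on these 2 libraries. An opposite-strand transcript, Gm11110, shares 192 of the 1290 exonic bases of Tnfsf9 in GENCODE M21, and whether the counting used strand is not given in the sources used here.

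Tnfsf14 encodes LIGHT, which binds HVEM on lymphocytes and the lymphotoxin β receptor on stromal and myeloid cells. It had 412 and 471 counts in the WT-labelled pair and 177 and 162 in the anti-Act1-labelled pair, or 6.38 and 6.21 CPM against 2.87 and 2.97 CPM. The libraries of each group lay close together and the groups were far apart (6.29 ± 0.121 and 2.92 ± 0.0712 CPM, SD, n = 2 each). Tnfsf14 fell by 1.11 on the log2 scale (standard error 0.15, 95% interval -1.41 to -0.81, edgeR adjusted p = 9.8e-08), 2.16-fold. It was called lower in 13 of 13 alternative analyses, with a log2 fold change between -1.13 and -0.79.

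Some markers of another myeloid cell fell as Tnfsf14 did, but not all. Of 8 neutrophil markers 6 were tested, with 3 called lower and 1 higher, beside 9.76% and 10.9% of all genes tested. S100a9, Ltf and Ngp, granule or cytosolic proteins of neutrophils, were called lower (log2 fold changes of -1.42, -1.58 and -2.21). S100a8, the most abundant, was called higher (0.66), while Camp (0.20) and Elane (-0.99) were not called. The 8 summed to 7.34 and 7.21 CPM in the WT-labelled pair and to 7.61 and 6.67 CPM in the anti-Act1-labelled pair. Without S100a8 the sums were 3.73 and 3.47 CPM against 1.52 and 1.12 CPM. Ly6g, the defining surface marker, had 5 counts in 1 library labelled WT and 0 in the other 3, and Mpo had 0 counts in both libraries labelled anti-Act1. The part of such cells in the fall of Tnfsf14, or in the values of Tnfsf8 below, was not tested.

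The promoter of Tnfsf14 is shown beside that of Tnf because the pair moved in opposite directions by similar amounts; it was chosen after the values were seen. It lies at chr17:57194132-57194431 (RefSeq, GRCm38.p6, minus strand) and is written 5′ to 3′ with its AP-1 match, read on the opposite strand, in capitals.
Tnfsf14 promoter: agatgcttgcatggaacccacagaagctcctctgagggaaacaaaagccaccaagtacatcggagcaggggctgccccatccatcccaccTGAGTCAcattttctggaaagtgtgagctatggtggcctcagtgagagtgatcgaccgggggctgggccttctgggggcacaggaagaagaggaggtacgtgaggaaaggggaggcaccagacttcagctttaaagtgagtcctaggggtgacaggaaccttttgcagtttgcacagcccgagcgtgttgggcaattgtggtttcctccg
The match began 160 bases before the start, and none of the other 4 motifs was found in this window.

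Tnfsf8 encodes CD30 ligand, a costimulator of activated lymphocytes. It was rare, with 51 and 48 counts in the WT-labelled pair and 20 and 16 in the anti-Act1-labelled pair, or 0.789 and 0.632 CPM against 0.324 and 0.293 CPM. Both libraries labelled WT were above both labelled anti-Act1. The log2 fold change was -1.19, as large as that of Tnfsf14, but its interval was wide (standard error 0.45, 95% interval -2.10 to -0.29) and the edgeR adjusted p of 0.0514 missed the threshold. Tnfsf8 was called lower in 3 of the 11 alternatives that tested it, with at least 10 counts in every library (edgeR adjusted p = 0.0243), without a filter on low counts (edgeR adjusted p = 0.0419) and with unfiltered limma on log2(FPKM + 1) (limma adjusted p = 0.0345).

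Tnfsf12 encodes TWEAK, which signals through Fn14 on epithelial and stromal cells. It had 2361 and 2838 counts in the WT-labelled pair and 2002 and 1815 in the anti-Act1-labelled pair, or 36.5 and 37.4 CPM against 32.4 and 33.2 CPM. The libraries labelled anti-Act1 were the lower ones by a small step (37.0 ± 0.602 against 32.8 ± 0.580 CPM, SD, n = 2 each) that was still larger than the spread within either group. The log2 fold change was -0.17 (standard error 0.066, 95% interval -0.30 to -0.040, edgeR adjusted p = 0.0553). It was called lower in 3 of 13 alternatives, without composition normalization (edgeR adjusted p = 0.0301) and with both filtered limma fits (limma adjusted p = 0.0272 and 0.0274).

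Tnfsf10 encodes TRAIL, which kills sensitive cells through death receptors. It was at 4.74 and 4.57 CPM in the WT-labelled pair and at 5.44 and 5.49 CPM in the anti-Act1-labelled pair. The groups did not overlap, but at 300 to 347 counts a library the log2 fold change of 0.23 was not called (standard error 0.14, 95% interval -0.053 to 0.52, edgeR adjusted p = 0.273). Tnfsf13 and Tnfsf13b encode APRIL and BAFF, a pair of survival factors for B cells and plasma cells. Tnfsf13 was at 5.26 and 5.52 CPM against 4.94 and 5.02 CPM, a log2 fold change of -0.12 (standard error 0.14, 95% interval -0.40 to 0.17, edgeR adjusted p = 0.633). Tnfsf13b was at 5.48 and 4.35 CPM against 5.07 and 4.96 CPM, so that both anti-Act1 libraries fell between the libraries labelled WT. Its log2 fold change was 0.034 (standard error 0.15, 95% interval -0.26 to 0.33, edgeR adjusted p = 0.910).

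Ltb encodes lymphotoxin β, which anchors lymphotoxin α at the cell surface. Counts were 35 and 24 in the WT-labelled pair and 24 and 30 in the anti-Act1-labelled pair, or 0.542 and 0.316 CPM against 0.389 and 0.549 CPM. The groups overlapped, and the log2 fold change of 0.13 had an interval from -0.81 to 1.08 (standard error 0.47, edgeR adjusted p = 0.886), which includes a change as large as that of Tnf.

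**Figure D2:**
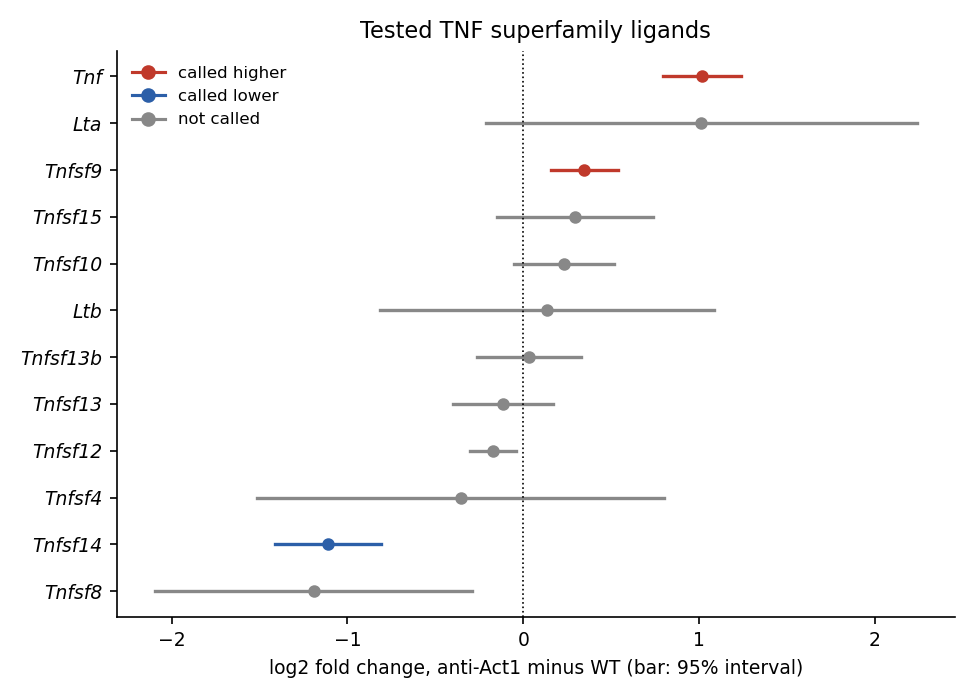
Log2 fold change (anti-Act1 minus WT, edgeR) of the 12 tested ligands of the family, 9 described here and 3 others (Lta, Tnfsf4, Tnfsf15), with 95% intervals as bars and colours for the call at an adjusted p under 0.05. Tnf (1.02) and Tnfsf9 (0.35) are called higher and Tnfsf14 (-1.11) lower, and Tnfsf8 (-1.19), Ltb, Lta and Tnfsf4 have wide intervals.

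Levels were compared between ligands per gene length, as FPKM (fragments scaled to gene length and library total) from the authors' table, which rests on the same counts. In the libraries labelled WT, Tnfsf12 came first at 22.0 ± 0.431 FPKM (SD, n = 2) and Tnfsf9 second at 13.3 ± 0.962 FPKM. Tnf (4.16 ± 0.390 FPKM), Tnfsf14 (3.40 ± 0.0540 FPKM), Tnfsf13 (3.24 ± 0.121 FPKM), Tnfsf13b (2.56 ± 0.408 FPKM) and Tnfsf10 (0.950 ± 0.0205 FPKM) followed, and Ltb (0.395 ± 0.146 FPKM) and Tnfsf8 (0.311 ± 0.0475 FPKM) came last. Neighbours in this order did not overlap between libraries, except Ltb and Tnfsf8. TWEAK and 4-1BB ligand were thus the ligands with the most message per length in these macrophages, above TNF. Tnfsf12 was above 72.0% of the genes tested in FPKM over the 4 libraries, Tnfsf9 above 64.1%, Tnf above 42.7% and Tnfsf8 above 9.07%.

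With anti-Act1, Tnfsf12 (19.2 ± 0.172 FPKM), Tnfsf9 (16.6 ± 1.89 FPKM) and Tnf (8.26 ± 0.486 FPKM) were again the first 3, with a smaller distance between them. Tnfsf14 went from the fourth place to the sixth at 1.55 ± 0.0243 FPKM, below Tnfsf13 (2.94 ± 0.0074 FPKM) and Tnfsf13b (2.57 ± 0.0606 FPKM). Tnfsf10 (1.10 ± 0.0020 FPKM), Ltb (0.424 ± 0.0992 FPKM) and Tnfsf8 (0.133 ± 0.0105 FPKM) stayed at the end, and no neighbours overlapped. Summed over the 9, the level was 50.0 and 50.6 FPKM in the WT-labelled pair and 51.7 and 54.0 FPKM in the anti-Act1-labelled pair. Within a sum of similar size the shares shifted, as Tnf made up 8.87% and 7.67% of it in the WT-labelled pair and 16.7% and 14.7% in the anti-Act1-labelled pair. The share of Tnfsf12 was 43.4% and 44.1% against 36.9% and 35.8%, and that of Tnfsf14 was 6.87% and 6.63% against 2.96% and 2.90%. The gene length in FPKM does not correct for how reads shared with an overlapping gene were counted.

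**Figure D3:**
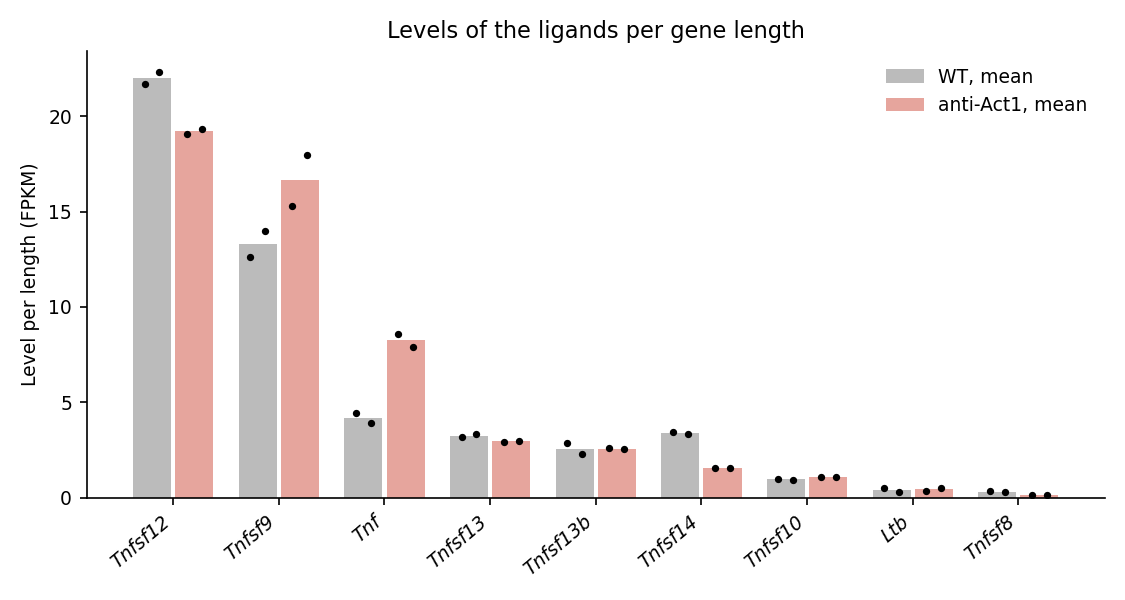
Level per gene length (FPKM) of the 9 ligands, with bars for the mean of the 2 libraries of each group (WT in grey, anti-Act1 in red) and dots for the single libraries. Tnfsf12 and Tnfsf9 have the tallest bars in both groups, and the bar of Tnf goes from 4.16 to 8.26 FPKM while that of Tnfsf14 goes from 3.40 to 1.55 FPKM.

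Several of these genes are neighbours on the chromosome. On chromosome 17, Ltb, Tnf and Lta follow each other with 3061 and 1157 bases between them, and of the 3 only Tnf was called. Further along chromosome 17, Tnfsf9 (chr17:57105287-57107758), Cd70 and Tnfsf14 (chr17:57189474-57194181) lie 38.2 and 39.7 kb apart (RefSeq, GRCm38.p6). Within this group the ligand at one end rose and the ligand at the other fell, with log2 fold changes of 0.35 and -1.11, and Cd70 had at most 2 counts in any library. On chromosome 11, Tnfsf13 and Tnfsf12 lie 685 bases apart and neither was called. A joint gene, Tnfsfm13, covers both of them and shares 983 of 1637 exonic bases with Tnfsf13 and 731 of 1515 with Tnfsf12. Tnfsfm13 was listed at 0 counts in all 4 libraries, and how reads in the shared exons were assigned is not given in the sources used here. Whether such reads were dropped or were counted for Tnfsf12 and Tnfsf13 therefore cannot be told. The exons of Tnfsf13 also share 221 bases with Tnfsf13os on the other strand.

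The other ligands of the family were rare or near the limit. Of 9 such genes 3 were tested and 0 called, beside 20.7% of all genes tested, with a median log2 fold change of 0.30. Of these 9 genes 3 had at most 3 counts in every library. Lta, the soluble partner of Ltb, had 8 and 15 counts in the WT-labelled pair and 13 and 25 in the anti-Act1-labelled pair, and its log2 fold change of 1.01 was not called (standard error 0.61, edgeR adjusted p = 0.266). It was 0.37 when anti-Act1 replicate 2 was left out and 1.49 when anti-Act1 replicate 1 was. Tnfsf15 encodes TL1A, which costimulates T cells through DR3, and it had 115 to 147 counts and a log2 fold change of 0.30 (standard error 0.22, edgeR adjusted p = 0.390). Tnfsf4 encodes OX40 ligand and had 9 to 22 counts and a log2 fold change of -0.36 (standard error 0.58, edgeR adjusted p = 0.732). The groups of Tnfsf4 overlapped. Fasl, the ligand of the death receptor Fas, had 8 and 4 counts in the WT-labelled pair and 0 in both labelled anti-Act1, with no test. WT replicate 2 was at 0.0527 CPM, below the limit of 0.0549 CPM that 0 counts allow in anti-Act1 replicate 2. No fold difference is therefore given for Fasl. Tnfsf11 (RANKL) had 2 to 10 counts, Tnfsf18 (GITR ligand) 2 to 8, and Cd40lg at most 1, while Eda had 0 in every library.

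The receptors of the 9 ligands were read beside them, because macrophages can respond to ligands they make. Of 14 receptor genes 11 were tested, 4 were called higher and 0 lower (over all genes tested, 10.9% and 9.76%), with a median log2 fold change of 0.18. Of the receptors of TNF, Tnfrsf1b (TNFR2) was at 857.1 and 872.4 CPM in the WT-labelled pair and at 992.4 and 1019 CPM in the anti-Act1-labelled pair, a small rise with a log2 fold change of 0.22 (standard error 0.049, edgeR adjusted p = 0.000776). Tnfrsf1a (TNFR1) was not called at -0.073 (95% interval -0.18 to 0.032, edgeR adjusted p = 0.364). Tnfrsf9, which encodes 4-1BB and so pairs with Tnfsf9, was at 7.55 and 7.30 CPM against 14.3 and 16.7 CPM. Both anti-Act1 libraries were above both WT libraries, with a log2 fold change of 1.06 (standard error 0.10, edgeR adjusted p = 2.8e-11), and like its ligand it was on the study's heat map.

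Neither receptor of Tnfsf14 was called lower with it. Tnfrsf14 (HVEM) was at 45.5 and 49.0 CPM in the WT-labelled pair and at 54.1 and 56.3 CPM in the anti-Act1-labelled pair, a rise with a log2 fold change of 0.22 (standard error 0.061, edgeR adjusted p = 0.00571). That call was lost without anti-Act1 replicate 2 (edgeR adjusted p = 0.114) and without WT replicate 1 (edgeR adjusted p = 0.0692). Unfiltered limma on log2(FPKM + 1) did not call Tnfrsf14 either (limma adjusted p = 0.0900). Ltbr, the lymphotoxin β receptor that also binds LIGHT, was not called at 0.038 (95% interval -0.072 to 0.15, edgeR adjusted p = 0.698). Tnfrsf10b, the death receptor for TRAIL, had 25 and 20 counts against 60 and 42 counts and was called higher with a log2 fold change of 1.43 (standard error 0.43, edgeR adjusted p = 0.0113). DESeq2 did not call it (DESeq2 adjusted p = 0.0596), nor was it called without anti-Act1 replicate 1 (edgeR adjusted p = 0.183) or without WT replicate 2 (edgeR adjusted p = 0.137).

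No other tested receptor was called. The TRAIL decoy receptors Tnfrsf22 and Tnfrsf23 were at log2 fold changes of 0.32 and 0.13 (edgeR adjusted p = 0.145 and 0.143). Tnfrsf12a (Fn14, the receptor of TWEAK) was at 0.18 (edgeR adjusted p = 0.401), Tnfrsf8 (CD30) at -0.024 (edgeR adjusted p = 0.963) and Tnfrsf13b (TACI, a receptor of APRIL and BAFF) at -0.15 (edgeR adjusted p = 0.155). The further receptors of APRIL and BAFF were at or near the limit, with 0 counts in every library for Tnfrsf13c and at most 3 for Tnfrsf17. Tnfrsf11b, the soluble decoy osteoprotegerin, also had at most 3.

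**Figure D4:**
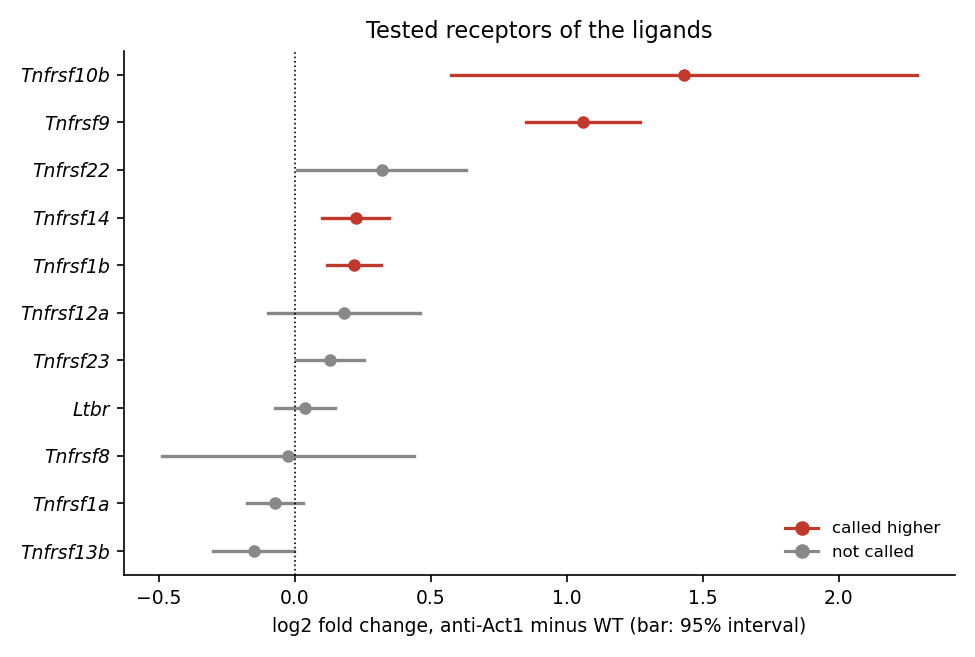
Log2 fold change (anti-Act1 minus WT, edgeR) of the 11 tested receptors of the ligands, with 95% intervals as bars and the 4 genes called higher in red. Tnfrsf10b (1.43) and Tnfrsf9 (1.06) lie apart from the other 9, which are between -0.15 and 0.32.

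Ligands on the surface are cut by proteases, and 9 genes of this step were tested. Of these, 3 were called higher and 0 lower, beside 10.9% and 9.76% of all genes tested, with a median log2 fold change of 0.015. Adam17, the protease that releases TNF, was at 338.4 and 338.9 CPM in the WT-labelled pair and at 391.0 and 400.0 CPM in the anti-Act1-labelled pair, a log2 fold change of 0.22 (standard error 0.050, edgeR adjusted p = 0.00065). Sppl2a, which cleaves the membrane stub that is left, was called at 0.23 (edgeR adjusted p = 0.000896). Unfiltered limma on log2(FPKM + 1) called 1 of the 9 genes higher and did not call Sppl2a (limma adjusted p = 0.147). Rhbdf2, which brings ADAM17 to the surface, was called at 0.18 (edgeR adjusted p = 0.0265), but this call held in only 6 of 13 alternatives. With WT replicate 1 left out, 1 of the 9 genes was called lower. The call of Rhbdf2 was lost without anti-Act1 replicate 2 (0.10, edgeR adjusted p = 0.489) and without WT replicate 2 (0.17, edgeR adjusted p = 0.0643).

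Proteins that bind AU-rich or stem-loop elements control the life of messages such as that of Tnf, or their translation, and not all of them in the same direction. Of 11 such genes 1 was called higher and 1 lower, near the 10.9% and 9.76% of all genes tested, with a median of -0.061. Zc3h12a (Regnase-1, an RNase that degrades cytokine messages) was at 36.5 and 35.8 CPM in the WT-labelled pair and at 49.5 and 49.4 CPM in the anti-Act1-labelled pair, a rise with a log2 fold change of 0.45 (standard error 0.063, edgeR adjusted p = 1.5e-07). Tial1, related to the translational repressor TIA-1, was called lower at -0.17 (edgeR adjusted p = 0.0272). Tial1 was not called by unfiltered limma on log2(FPKM + 1) (limma adjusted p = 0.0849), which called 0 of the 11 lower. It was not called without anti-Act1 replicate 1 (edgeR adjusted p = 0.179), without anti-Act1 replicate 2 (edgeR adjusted p = 0.173) or without WT replicate 2 (edgeR adjusted p = 0.140). In place of 1, 2 of the 11 genes were called lower when WT replicate 1 was left out, with DESeq2, without composition normalization and in both filtered limma fits.

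Below the receptors, 29 signalling genes were tested, of which 8 were called higher and 2 lower (all genes tested: 10.9% and 9.76%), with a median of 0.024. Unfiltered limma on log2(FPKM + 1) called 4 of the 29 higher. With WT replicate 2 left out, 5 were called higher. The largest absolute changes among those called were in Tnfaip3 (A20, a brake on NF-κB) at 0.63, Traf1 at 0.62, Birc3 (cIAP2, a ubiquitin ligase at the TNF receptors) at 0.49 and Traf6 at 0.43. Their edgeR adjusted p values were 5.3e-13, 7.5e-07, 6.1e-10 and 3.4e-08, and each was called higher in 13 of 13 alternatives. Of these, Traf6 was also on the study's heat map. The rises of Tradd, Traf3, Tnip1 and Mlkl ranged between 0.16 and 0.29 on the log2 scale, and Ripk1 and Ikbkb were called lower at -0.17 and -0.15. Of the 29 genes, 0 were called lower by edgeR with either anti-Act1 library left out, and 1 with WT replicate 1 left out.

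Cells other than macrophages that can supply these ligands left few transcripts. The 5 B cell markers summed to between 2.91 and 4.03 CPM, nearly all of it Cd79b, and the 5 NK cell markers to between 0.470 and 0.666 CPM. The 8 T cell markers summed to between 26.8 and 32.8 CPM, of which Cd4, a gene that macrophages also express, made up all but 1.47 to 2.58 CPM. Cd4 was called higher at 0.21 on the log2 scale (standard error 0.073, edgeR adjusted p = 0.0358), the only T cell marker called of 4 tested. The 6 dendritic cell markers summed to between 4.26 and 5.31 CPM, led by Clec9a, and 0 of the 5 tested were called. Over all genes tested, 20.7% were called in either direction. Sums were at most 0.311 CPM for the 5 mast cell and basophil markers, 0.898 CPM for the 7 epithelial tumour markers, 0.714 CPM for the 5 fibroblast markers and 0.632 CPM for the 5 erythroid markers.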

How the data were processed

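Reads of 4 libraries were counted per gene by the authors, who deposited whole counts without normalization and FPKM values made from the same counts. The submitters' processing notes name Bowtie 0.12.2, HTSeq 0.6.1 and the builds mm8 and mm10, with no role. The paper gives another Bowtie version for the genome index and names TopHat for the alignment. Counts were tested with edgeR 4.0.16 (R 4.3.3): TMM, filterByExpr, the quasi-likelihood F test with condition only, and Benjamini-Hochberg adjustment over 12494 genes. CPM are scaled to the TMM-adjusted totals. Ligands, pathway lists, marker lists, tests and alternatives were chosen with earlier results of these data known. Named were the 9 ligands, the other family ligands, their receptors, Traf3ip2, the Y-linked genes and, of 3 further lists, up to 4 called genes with the largest change whose groups did not overlap and whose mean reached 1 CPM. Other members of a list are named with its count. Of the macrophage list, 1 marker is not reported here, for a reason unrelated to its values.

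The 13 alternatives changed the tool (DESeq2 1.42.0), the scaling (DESeq2's size factors, or library totals alone), the filter (none, or a minimum of 10 counts in each library) or the model (a block for the replicate number), used limma 3.58.1 on log2 of the FPKM plus 1 or plus 0.1 for genes reaching an FPKM of 1 in 2 libraries, dropped that limit, or omitted 1 of the 4 libraries. Libraries of a group differed by more than sampling noise. On simulated data with 200 genes changed 2-fold, edgeR recovered 170 and made 9 false calls among 12373 genes tested. Promoters came from RefSeq (GRCm38.p6) and 3′ regions from GENCODE M21.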

Additional observations from a re-analysis of the deposited data

How the results depend on the processing

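Tnf, Tnfsf14, Tnfrsf9 and Tnfrsf1b kept their direction and their call in all 13 alternatives. Of the 9 ligands, 2 were called higher in the main analysis and 1 with unfiltered limma on log2(FPKM + 1), which did not call Tnfsf9 (0.30, limma adjusted p = 0.136). With single libraries left out, 1 to 2 were called higher and 1 lower. In place of 1, 2 ligands were called lower without composition normalization, without a filter, with at least 10 counts in every library and in all 3 limma fits, the second being Tnfsf8 or Tnfsf12. Deviations of same-numbered libraries from their group means had a correlation of -0.0301 over the genes tested. That value cannot tell whether same-numbered libraries were prepared together. With the replicate block 2406 genes were called, and 2 ligands rose and 1 fell, the same ligand calls as without it. Of the 29 signalling genes 1 was then called lower in place of 2. Over all genes, limma called 908 higher and 1053 lower with log2(FPKM + 0.1), and without a filter 582 higher and 509 lower. Leaving out single libraries gave 930 to 1335 genes higher and 741 to 1208 lower; in these fits the lone library of a group is assumed to vary like the pair of the other. Over the same 4 fits, uncalled genes ran from one sign to the other: Ltb from -0.21 (without WT replicate 2; -0.13 when anti-Act1 replicate 2 was left out) to 0.56, Tnfsf13b from -0.13 (without WT replicate 2) to 0.21, Tnfrsf8 from -0.12 to 0.077 (without WT replicate 2) and Tnfsf4 from -1.03 to 0.14 (without anti-Act1 replicate 1). The cause of these changes was not tested. Ltb and Tnfsf8 had 16 to 51 counts a library and the widest intervals of the 9 ligands.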

Other observations

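The AU-rich nonamer counted in Tnf occurred at least 3 times in the 3′ region of 76 tested genes, Tnf among them. Of these 76, 9 (11.8%) were called higher and 2 (2.63%) lower, and their median log2 fold change was 0.015, beside -0.0046 over all genes tested. These shares are given as counts, with no test of the list, and over all genes tested 10.9% were called higher and 9.76% lower.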
